A study of Mus musculus with 23 samples.

Results

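The deposited table of microRNA assays holds 2 assays whose names start with mir-378, of 522 assays in all, and they are described here over the 23 mouse retina samples and 7 groups of the series. The table tells them apart by a number of the assay's maker, TM 2243 and TM 567, and gives neither their sequence nor which arm of the hairpin each reads. They were picked from measured values: in the second of 2 profiling sets they were the 2 assays called lower in retinas without Rb and p107. The differences of the second set are therefore a description without a test, whereas the first set was not used in picking them.

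The study profiled microRNAs in retinas of mice that lack Rb and p107, with and without further loss of p53 or Dicer1. The first set holds 3 wild-type samples (WT), 3 samples titled Chx10Cre; Rb lox/lox; p107 -/- (DKO), 3 titled Dicer1 lox/lox (DicKO) and 4 titled with both sets of alleles (DKO_DicKO). The second set holds 3 other WT samples, 3 DKO and 4 DKO_P53KO samples, for which the labels give these group names and no alleles. All are fresh retina of a mixed strain, with ages, litters and sex of the animals not stated. Cre driven by Chx10 acts in retinal progenitors and is known to be mosaic, so some cells of a retina can keep the floxed alleles, and no Cre is named in the titles of the DicKO samples. The assay measures no messenger RNA, so loss of Rb, p107, p53 or Dicer1 was not checked in the samples.

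MicroRNAs are short RNAs that pair with messenger RNAs through a seed near their 5′ end and reduce their translation or stability. Dicer1 cuts most of them out of hairpin precursors. The gene of miR-378a lies in an intron of Ppargc1b, which encodes PGC-1 beta, a coactivator of genes for mitochondria and fat oxidation. MiR-378 is known from fat, liver, heart and muscle, where it has been tied to energy use, lipid metabolism and muscle differentiation.

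The sequences of 3 mature miRNAs of the family are shown because they carry the trait that makes it a family, a nearly common seed followed by a common body. They are from RefSeq (GRCm38.p6), written 5′ to 3′, with the seed, bases 2 to 8, in capitals.
miR-378b: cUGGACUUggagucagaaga
miR-378c: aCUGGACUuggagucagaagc
miR-378d: aCUGGCCUuggagucagaaggu
MiR-378b starts 1 base later than miR-378c, so its seed window is moved by 1 base. Counted from the 5′ end of miR-378c, miR-378b differs from it by C21A, and miR-378d by A6C, which lies in the seed, and C21G. MiR-378b lies at chr11:88352839-88352858 on the plus strand, within Msi2. MiR-378c lies at chr14:46954905-46954925 on the minus strand, within Samd4 and Gm52120. MiR-378d lies at chr10:126710355-126710376 on the minus strand, in no annotated gene. These were the 3 mature entries of the family in the reference table, and the assay table holds an assay for none of them. The mature sequence of miR-378a is not in that reference, so none is shown. The seeds searched for were those of these 3 entries, so the search cannot show which other miRNAs share the seed of miR-378a. Whether the 2 miR-378 assays also read these relatives was not tested.

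Values are quantification cycles (Cq), the PCR cycle at which an assay's fluorescence crosses a threshold. The earlier the cycle, the more template there was, by about a doubling per cycle. Detection was set at a Cq of at most 32. The assays detected per sample ranged from 91 to 228 in the first set and from 307 to 350 in the second, and undetermined wells in the first set can be failed wells, since no value above Cq 32 occurs there and 196 occur in the second. Levels below are log2 values relative to a mean Cq, taken over the assays detected in every sample of a set (61 in the first, 284 in the second), so they hold no shift that all miRNAs share. Levels are not compared between sets.

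TM 2243 amplified at nearly the same cycle in 11 of the 13 first-set samples, with and without Dicer1, while most other assays came later without Dicer1. In WT its Cq was 24.3, 24.5 and 24.0. In DicKO it was 23.9, 24.0 and 24.2. In DKO it was 29.1, 24.2 and 24.5. In DKO_DicKO it was 24.3, 23.9, 23.7 and 29.1. DKO replicate 1 and DKO_DicKO replicate 4 thus stood about the same distance above all others, and the remaining 11 samples lay within 0.751 cycles.

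That range of 0.751 cycles was the smallest among the 61 assays detected throughout the set, of which the next had 1.16 cycles and the median 6.36, over the same 11 samples. This rank is in part fixed by the choice, because the 2 samples were left out for their TM 2243 values, while the other assays kept their own extremes. The mean Cq of those 61 assays ran from 23.3 to 29.1 in the same samples. With all 13 samples the range of TM 2243 was 5.35 cycles, the 11th smallest of 61, beside a median of 6.45. The 2 late samples are late for this assay more than for any other of the 61. DKO replicate 1 came 4.77 cycles after the mean of the other DKO samples, against 2.31 cycles for the next assay and a median of 1.01. DKO_DicKO replicate 4 came 5.07 cycles after the mean of the other DKO_DicKO samples, against 2.72 for the next assay and a median of 0.974. The library of neither sample is named as different in the labels. Results on the first set are given with and without both samples.

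**Figure D1:**
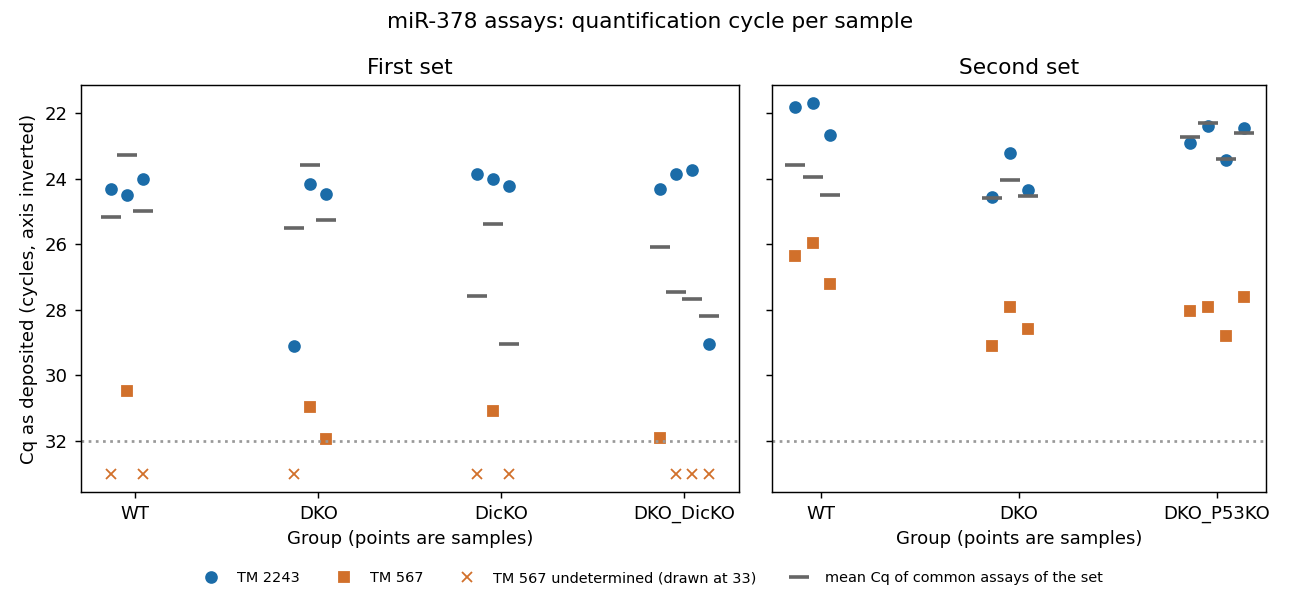
Cq of TM 2243 (circles) and TM 567 (squares) in each sample, with the mean of the 61 or 284 assays common to its set (bars); the Cq axis is inverted so that more template is higher, the dotted line is the detection limit of Cq 32, and crosses at the bottom are undetermined wells of TM 567. In the first set TM 2243 stays between 23.7 and 24.5 while the bars fall in DicKO and DKO_DicKO, apart from the 2 samples at 29.1; in the second set both assays have their lowest mean Cq in WT.

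Without Dicer1, most assays came later and TM 2243 did not. Its mean Cq was 24.3 ± 0.247 (SD, n = 3) in WT and 24.0 ± 0.175 (SD, n = 3) in DicKO, a difference of −0.244 cycles (exact permutation test, two-sided, p = 0.2, adjusted p = 0.686 over 4 comparisons, with 0.1 the smallest p that 3 against 3 samples allow). The median of the 61 assays was 3.26 cycles later in DicKO, and 4 of 61 were earlier there, TM 2243 among them. DKO_DicKO, at 25.2 ± 2.55 cycles (SD, n = 4), was 0.668 cycles earlier than DKO, at 25.9 ± 2.76 (SD, n = 3), a difference within the spread of either group (exact permutation test, p = 0.514, adjusted p = 0.686). Without DKO replicate 1 the direction turned, to 0.922 cycles later in DKO_DicKO. The median of the 61 assays was 2.68 cycles later in DKO_DicKO, and 2 of 61 were earlier. In bulk retina, fewer cells that carry a miRNA and less of it per cell cannot be told apart, nor can a common shift of all miRNAs and a different amount of input RNA.

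**Figure D2:**
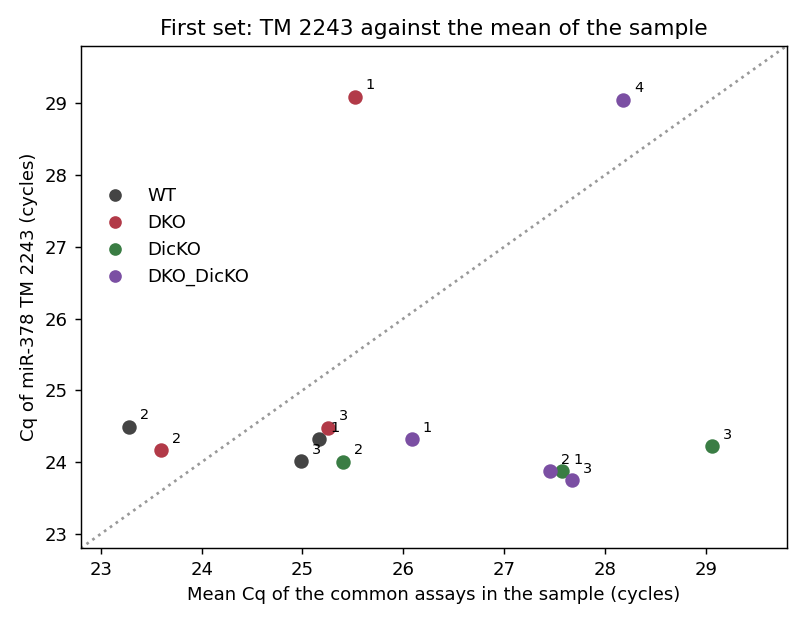
Cq of TM 2243 (y axis, cycles) against the sample mean over the 61 assays common to the first set (x axis, cycles), one point per sample with its replicate number beside it, coloured by group; the dotted line marks equal values. The points form a flat band between 23.7 and 24.5 over x values from 23.3 to 29.1, with DKO replicate 1 and DKO_DicKO replicate 4 alone at 29.1.

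Relative to the 61 assays, TM 2243 therefore stood higher in the samples titled Dicer1 lox/lox. Its scaled level was 0.84, −1.21 and 0.98 in WT and 3.70, 1.39 and 4.84 in DicKO, so the groups did not overlap. In DKO it was −3.58, −0.57 and 0.77, of which the fit entered the first at its floor of −2.94. In DKO_DicKO it was 1.76, 3.58, 3.93 and −0.87, and here the last sample lay inside the range of DKO. In order of the mean, DicKO stood at 3.31 ± 1.76 (SD, n = 3), DKO_DicKO at 2.10 ± 2.20 (SD, n = 4), WT at 0.20 ± 1.23 (SD, n = 3) and DKO at −1.13 ± 2.23 (SD, n = 3), and each neighbour in this order overlapped the next.

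The scaled difference between DicKO and WT was 3.11 ± 1.41 log2 (SE, 95% interval −0.01 to 6.23) and did not pass the test (limma, adjusted p = 0.0936). In that comparison 36.1% of 133 tested assays were called, and 18.8% had groups that did not overlap with DicKO higher, so the lack of overlap is not rare. Without both late samples the difference was 2.95 (limma, adjusted p = 0.0402). Both samples were left out for their own values of this assay, and neither is a DicKO or WT sample. That adjusted p therefore follows from the choice of samples and is no independent test. The difference between DKO_DicKO and DKO was 3.01 ± 1.31 log2 (SE, 95% interval 0.13 to 5.90), the highest value of 125 tested assays, and did not pass either (limma, adjusted p = 0.108; 32% of assays called). It was 3.98 without DKO_DicKO replicate 4 (limma, adjusted p = 0.0271), 2.001 without DKO replicate 1 (adjusted p = 0.323), and 2.84 without both (adjusted p = 0.0873). Replicate 4 had the lowest scaled level of its group, so the lower adjusted p without it is no independent test either. On Cq as deposited the same differences were 0.24 and 0.67 on the log2 scale, and neither passed (limma, adjusted p = 0.871 and 0.607).

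The scaled Dicer1 difference of TM 2243 was called neither with nor without Rb and p107 in the fit of all samples above. It was also not shown to differ between these 2 backgrounds. The difference of the differences was −0.10 ± 1.93 log2 (SE, 95% interval −4.37 to 4.18; limma, adjusted p = 0.968; 5.93% of 135 assays called), an interval too wide to show likeness. DKO_DicKO and DicKO differed by −1.21 ± 1.29 log2 (SE, 95% interval −4.06 to 1.63; limma, adjusted p = 0.6197). In that comparison 0% of 99 assays were called, and 12 had an unadjusted p under 0.05. Without DKO_DicKO replicate 4 the value was −0.21.

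Loss of Rb and p107 alone gave no call for TM 2243 in the first set, the comparison that repeats the one it was picked on. DKO minus WT was −1.12 ± 1.41 log2 (SE, 95% interval −4.24 to 2.00; limma, adjusted p = 0.801), in a comparison where 17.3% of 133 assays were called. The value rests on DKO replicate 1: without it the difference was −0.10, and without both late samples −0.09 (adjusted p = 1 for both). On Cq as deposited DKO came 1.64 cycles later than WT (exact permutation test, p = 0.5, adjusted p = 0.686), or 0.0485 cycles later without both late samples.

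TM 567 was near the detection limit in the first set. It was detected in 5 of 13 samples, at Cq 30.5 in WT replicate 2, 31.0 and 31.95 in DKO replicates 2 and 3, 31.1 in DicKO replicate 2 and 31.93 in DKO_DicKO replicate 1, and was undetermined in the other 8. Every group thus had at least 1 detected and 1 undetermined sample. All its scaled values lay at the floor of the fit, so it was not tested, and a difference between groups was not detectable. The cycle gap between TM 567 and TM 2243 in those 5 samples was 5.98 in WT, 6.78 and 7.47 in DKO, 7.08 in DicKO and 7.61 in DKO_DicKO.

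In the second set both assays were detected in all 10 samples and were lower without Rb and p107. For TM 2243 the Cq was 21.8, 21.7 and 22.7 in WT, 24.5, 23.2 and 24.3 in DKO, and 22.9, 22.4, 23.4 and 22.4 in DKO_P53KO. For TM 567 it was 26.4, 26.0 and 27.2 in WT, 29.1, 27.9 and 28.6 in DKO, and 28.1, 27.9, 28.8 and 27.6 in DKO_P53KO. All DKO samples came later than all WT samples with both assays, and so did all DKO_P53KO samples with TM 567. How many of all assays do so on Cq as deposited was not counted, so this is no trait particular to miR-378.

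On the scaled level TM 2243 stood at 1.77, 2.23 and 1.82 in WT, at 0.05, 0.83 and 0.19 in DKO and at −0.17, −0.08, −0.03 and 0.16 in DKO_P53KO. The means were 1.94 ± 0.25 (SD, n = 3), 0.36 ± 0.41 (SD, n = 3) and −0.03 ± 0.14 (SD, n = 4), in which WT stood apart and DKO and DKO_P53KO overlapped. TM 567 stood at −2.76, −2.04 and −2.72 in WT, at −4.51, −3.90 and −4.04 in DKO and at −5.31, −5.63, −5.42 and −5.01 in DKO_P53KO. Its means were −2.51 ± 0.41 (SD, n = 3), −4.15 ± 0.32 (SD, n = 3) and −5.34 ± 0.26 (SD, n = 4), and none of its 3 groups overlapped. Groups that do not overlap were common: DKO_P53KO lay wholly below DKO in 23.3% and wholly below WT in 27.9% of 330 assays.

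**Figure D3:**
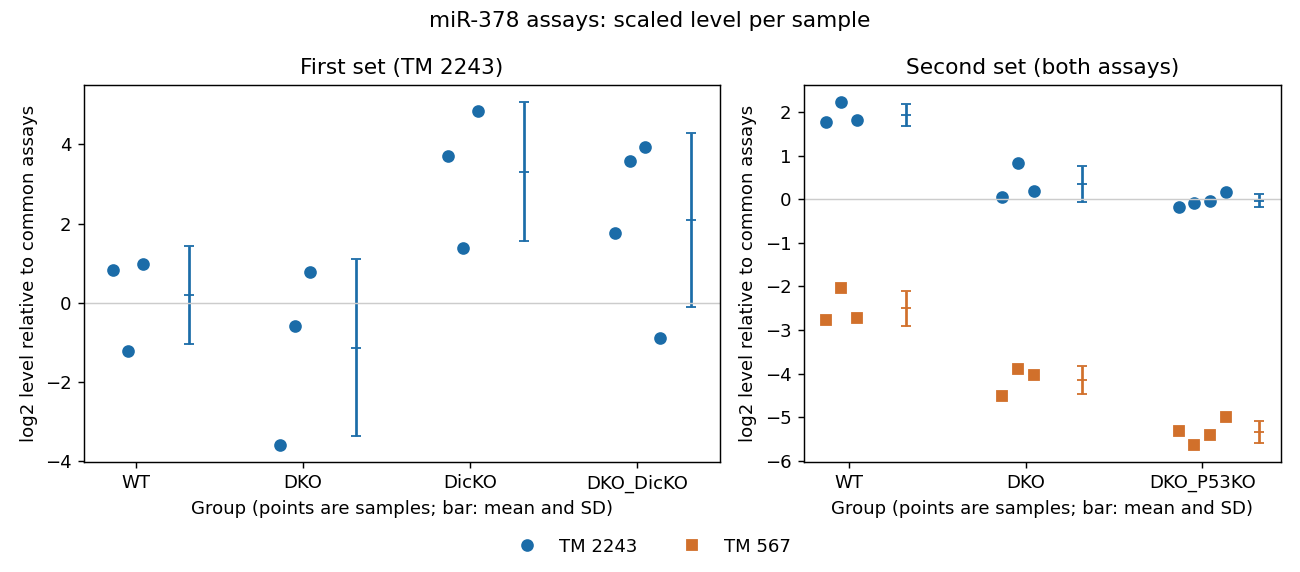
Scaled level of the miR-378 assays (y axis, log2 relative to the mean of the assays detected in every sample of the set) in each sample, with the mean and SD of each group beside the points; left the first set with TM 2243, right the second set with both assays, on separate scales. In the first set the groups spread over several log2 units and overlap between neighbours; in the second, WT lies above DKO and DKO_P53KO for both assays.

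DKO minus WT was −1.59 ± 0.27 log2 (SE) for TM 2243 and −1.64 ± 0.29 (SE) for TM 567, the 9th and 8th lowest of 309 values. These are the values that chose the assays: they were the 2 calls, 0.647% of 309 assays, so their being called says nothing further. Just outside the choice stood mir-124#, the passenger strand of a neuronal miRNA, at −2.44 ± 0.50 log2 and mir-339-3p at −3.49 ± 0.82, both with larger differences and larger errors. The first set's interval for TM 2243, −4.24 to 2.00, contains the second set's value as well as 0. DKO groups did not overlap WT, and lay lower, for 13.6% of all assays.

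The comparisons with DKO_P53KO share the DKO or WT samples used in picking the assays, and are also given without a test. DKO_P53KO minus DKO was −0.39 ± 0.24 log2 (SE) for TM 2243 and −1.19 ± 0.27 (SE) for TM 567, beside 21.2% of 330 assays called lower. DKO_P53KO minus WT was −1.97 ± 0.24 (SE) and −2.84 ± 0.27 (SE), beside 25.2% called lower. The first of these comparisons depends on the scaling: the mean of the 284 assays came 1.63 cycles earlier in DKO_P53KO than in DKO, and on Cq as deposited DKO_P53KO was higher than DKO by 1.24 log2 with TM 2243 and 0.44 with TM 567. Against WT the direction held on Cq as deposited, at −0.72 and −1.58, and so did DKO against WT, at −1.96 and −2.02.

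The distance between the 2 assays was wider in DKO_P53KO than in the other groups of the second set, as a description without a test, since it uses the samples on which the assays were picked. The gap in Cq, TM 567 minus TM 2243, does not depend on scaling. It is no ratio of levels, because assays differ in efficiency. The gap was 4.53, 4.27 and 4.54 cycles in WT, 4.57, 4.72 and 4.23 in DKO, and 5.14, 5.55, 5.39 and 5.17 in DKO_P53KO. Every DKO_P53KO sample lay above every other sample of the set, while WT and DKO overlapped.

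The mean gap was 5.31 ± 0.193 cycles in DKO_P53KO (SD, n = 4). In DKO it was 4.504 ± 0.253 cycles and in WT 4.45 ± 0.154 (SD, n = 3 each). It was thus 0.807 cycles wider in DKO_P53KO than in DKO and 0.863 cycles wider than in WT. The closeness of WT and DKO is in part fixed by the choice, because both assays were picked for being lower in DKO. Other pairs of assays with a common name and detected in all 10 samples moved too: the gap of the mir-325 pair changed by 0.650 cycles from DKO to DKO_P53KO, and that of the mir-455 pair by −2.13.

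**Figure D4:**
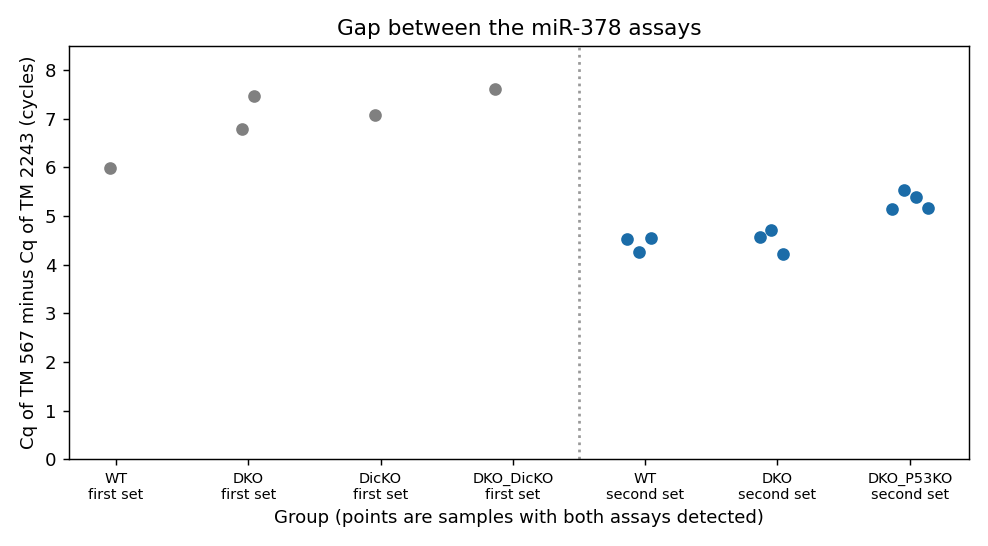
Cq of TM 567 minus Cq of TM 2243 (y axis, cycles) in each sample where both assays were detected, by group, first set in grey and second set in blue, parted by the dotted line. In the second set the 4 DKO_P53KO samples lie between 5.14 and 5.55, above WT and DKO, which lie between 4.23 and 4.72; the 5 samples of the first set lie between 5.98 and 7.61.

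The assays most like miR-378 were ranked by the root mean square difference between their scaled levels and those of miR-378, each centred on its own mean. In the first set, over 13 samples and 60 assays, they were mir-678 at 1.06 log2, mir-188-5p at 1.56, mir-34c# at 1.83, mir-31 at 1.83 and mir-101 (TM 2253) at 2.00, where the median assay had 2.47. Mir-678 is shown by its sequence because it was the nearest and also was late in the same samples.
miR-678: gUCUCGGUgcaaggacuggagg
It lies at chr10:76207333-76207354 on the minus strand, within Prmt2, and its seed, in capitals, is not one of the miR-378 family's. Its Cq ranged from 26.9 to 27.2 in WT, from 27.3 to 28.7 in DKO, from 26.2 to 26.6 in DicKO and from 26.96 to 29.3 in DKO_DicKO. The higher scaled level in DicKO than in WT was not particular to TM 2243 (3.11 log2). It was 3.23 for mir-678, 2.71 for mir-34c# and 2.68 for mir-188-5p, but 0.74 for mir-101 (TM 2253). For mir-678 and mir-34c#, 1 of 3 WT samples was entered at the floor. Mir-31 had a fitted 0.22, which is not a measured size, since 3 of 3 WT and 2 of 3 DicKO samples were entered at the floor. Before the floor its mean scaled level was −5.25 in WT and −3.57 in DicKO. These assays were picked for likeness over the same samples, so no test is given.

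In the second set, over 10 samples and 282 assays, the nearest to the mean of both miR-378 assays were mir-875-5p at 0.42 log2, mir-22# at 0.47, mir-362-3p at 0.51, mir-335# at 0.53 and mir-26b at 0.54, where the median assay had 1.13. No assay was among the nearest in both sets. Mir-335# is the passenger strand of miR-335, which like miR-378a sits in an intron, of Mest, an imprinted gene tied to fat cell growth. Its mean scaled level was 1.40 in WT, 0.27 in DKO and −0.30 in DKO_P53KO.

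A list of other miRNAs in introns of metabolic genes holds 9 assays, for miR-33 of Srebf2, the regulator of sterol synthesis, miR-103 and miR-107 of the pantothenate kinase genes, miR-335 of Mest, and miR-208 and miR-499 of myosin genes. Of 3 tested in the first set, 0 were called in DKO against WT, beside 17.3% of all assays, and 0 had an unadjusted p under 0.05 in limma. Their median was −0.23 log2 beside 0 over all assays. In DicKO against WT 1 of 3 was called, near the 36.1% of all assays: mir-335# had a fitted difference of −0.33 ± 0.11 log2 (SE; limma, adjusted p = 0.0451). All DicKO samples were entered at the floor, and 2 of 3 had no value there, which can be late or failed wells, so the value is neither a bound nor a measured size. The call ended without WT replicate 2, DicKO replicates 1 or 2, DKO replicates 1 or 2, or DKO_DicKO replicates 1 or 2 (adjusted p up to 0.156). In DKO_DicKO against DKO 0 of 3 were called, by limma also 0 at an unadjusted p under 0.05, beside 32% of all assays. All 3 were called lower in both comparisons on Cq as deposited (limma), where 61.5% and 63.1% of all assays were called.

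In the second set 0 of the 5 tested assays of that list were called in DKO against WT, beside 0.647% of 309 assays. Only mir-335# had an unadjusted p under 0.05 in limma, at −1.14 ± 0.31 log2. The median was −0.56 beside 0.08 over all assays. In DKO_P53KO against DKO, where 40.9% of 330 assays were called, 3 of 5 were called. Mir-33a#, of the sterol gene, rose by 1.26 ± 0.32 log2 (SE; limma, adjusted p = 0.0142), a call that ended without DKO replicate 1 (adjusted p = 0.0575). Mir-107 fell by 1.77 ± 0.26 log2 (SE; limma, adjusted p = 0.00137) and mir-335 fell by 1.47 ± 0.39 log2 (SE; limma, adjusted p = 0.0164), the latter not called without DKO replicate 2 (adjusted p = 0.0628). On Cq as deposited mir-107 was at −0.14 and mir-335 turned to 0.16, and neither was called, while mir-33a# was at 2.89 (adjusted p = 9.52e-04).

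In DKO_P53KO against WT, where 47% of 330 assays were called, 3 of 5 were called, all lower, with a median of −1.63 log2 beside −0.07 over all assays. Mir-107 fell by 1.63 ± 0.26 log2 (SE; limma, adjusted p = 0.00133), mir-335 by 2.20 ± 0.39 (adjusted p = 0.00183) and mir-335# by 1.70 ± 0.28 (adjusted p = 0.00144). These were at −0.38, −0.95 and −0.44 on Cq as deposited, where none of the 3 was called and 1 other of the 5 was called higher (limma; 51.8% of all assays called). The comparison shares its DKO_P53KO samples with the one before it.

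Other miRNAs with known roles in glucose, fat or mitochondrial metabolism, 17 assays, moved in both directions. Of 5 tested in DKO against WT of the first set 2 were called, beside 17.3% of all assays. Mir-365, which takes part in brown fat differentiation, had a fitted rise of 1.31 ± 0.14 log2 (SE; limma, adjusted p = 2.64e-04). For mir-365, 1 of 3 WT samples was entered at the floor, so 1.31 is not a measured size. Its SE and p rest in part on floor values without spread, since all 4 DKO_DicKO samples of the same fit lay there. Mir-210, induced by low oxygen and known to repress iron-sulfur assembly, fell by 2.54 ± 0.59 log2 (SE; limma, adjusted p = 0.0174). Of the DKO samples, 2 of 3 had no value for mir-210 and the third had a Cq of 25.0, within the WT range of 23.2 to 25.04, and the call ended without WT replicate 2, DKO replicate 1 or DKO replicate 3 (adjusted p up to 0.0651). Neither was called on Cq as deposited (1.03 and −5.30 log2; limma, adjusted p = 0.978 and 0.547).

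Without Dicer1, mir-210 fell by 2.25 ± 0.59 log2 in DicKO against WT (SE; limma, adjusted p = 0.0157), as 1 of 5 tested beside 36.1% of all assays, again with 2 of 3 DicKO samples without a value, and the call ended without DicKO replicate 1 or 3 (adjusted p up to 0.108). Mir-365 had a fitted difference of −1.53 ± 0.13 log2 in DKO_DicKO against DKO (SE; limma, adjusted p = 5.43e-06), as 1 of 4 tested beside 32% of all assays. All DKO_DicKO samples were entered at the floor, 1 of 4 for want of a value, so this too is neither a bound nor a measured size. None of 14 tested was called in DKO against WT of the second set, beside 0.647% of 309 assays. At an unadjusted p under 0.05 in limma there was 1, and the median was 0.20 log2 beside 0.08 over all assays. In DKO_P53KO against DKO 2 rose and 3 fell of 14, a share near the 40.9% of all assays, and the counts were the same in DKO_P53KO against WT, beside 47%. In DKO_P53KO against DKO, mir-27a#, the passenger strand of a miRNA that restrains fat cell differentiation, rose by 2.35 ± 0.54 log2 (SE; limma, adjusted p = 0.00842). In the same comparison mir-23b, known to restrain glutamine use, fell by 1.49 ± 0.33 log2 (SE; limma, adjusted p = 0.00756). On Cq as deposited mir-27a# was at 3.98 and mir-23b turned to 0.13, the latter not called.

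Markers of other cells moved with the groups of the second set, and their part in the miR-378 values was not tested. Sums are given on a linear scale on which 1 is the mean of the common assays. The 9 assays for retinal neurons and photoreceptors, which include miR-124, miR-9 and miR-182, summed to 529 to 538 in WT, 311 to 407 in DKO and 59.2 to 456 in DKO_P53KO, with mir-124a (TM446) undetected throughout. Of 8 tested, 0 were called in DKO against WT, beside 0.647% of 309 assays, with 3 at an unadjusted p under 0.05 in limma and a median of −2.32 log2. The 3 assays for pigment epithelium, ciliary body and lens summed to 723 to 791 in WT, 525 to 947 in DKO and 183.6 to 381 in DKO_P53KO. Assays of both lists were thus detected in every group, though not evenly. In DKO_P53KO mir-211 was detected in 2 of 4 samples, and the Cq of mir-96 ran from 24.3 to 31.4, beside 19.9 to 20.8 in WT.

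In DKO_P53KO against WT 6 of 8 retinal assays were called lower and none higher (limma, 47% of all assays called), with a median of −3.92 log2 beside −0.07 over all assays. Mir-96, a photoreceptor miRNA, stood at −7.09 ± 1.24 log2 and mir-124a (TM 1182) at −2.99 ± 0.31. Against DKO 2 of 8 were called lower, with a median of −2.29 (40.9% of all assays called). With Cq as deposited 3 of 8 were called lower against WT, with a median of −2.67, and against DKO the direction of the calls turned, with 2 of 8 called higher and none lower (limma; 51.8% and 60.6% of all assays called). Of the assays for pigment epithelium, ciliary body and lens, 2 of 3 were called lower against either group, and on Cq as deposited 1 of 3 against WT and 0 of 3 against DKO (limma).

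The muscle marker sums were low. The 9 muscle assays summed to 1.27 to 1.61 in WT, 1.10 to 1.57 in DKO and 0.154 to 2.08 in DKO_P53KO, with mir-208, mir-208b, mir-133a (TM 458) and mir-133a# undetected in all 3 groups. Of 4 tested, 0 were called in DKO against WT, also 0 at an unadjusted p under 0.05 in limma. In that comparison 0.647% of 309 assays were called, so a count of 0 says little. The 4 brown fat assays summed to 9.02 to 11.5 in WT, 15.9 to 16.4 in DKO, above WT without overlap, and 10.7 to 17.6 in DKO_P53KO, with 0 of 4 called in DKO against WT and 0 at an unadjusted p under 0.05 in limma. The 5 vessel assays summed to 26.4 to 33.2 in WT, 10.4 to 21.6 in DKO and 22.4 to 52.2 in DKO_P53KO, with mir-145# undetected, and the 6 of white blood cells and microglia to 6.47 to 9.30, 7.69 to 14.0 and 10.4 to 24.1, with mir-150# undetected in all groups and mir-142-5p in WT and DKO. The red blood cell assay, mir-486, was undetected in both sets. In DKO_P53KO against WT 3 of 5 white blood cell and microglia assays were called higher and none lower (limma, 47% of all assays called), with a median of 1.89 log2. On Cq as deposited 4 of 5 were called higher (limma, 51.8% of all assays called). Mir-142-3p, found in blood-derived cells, was at 3.37 ± 0.56 log2. Against DKO 1 of 5 white blood cell and microglia assays was called higher, beside 40.9% of all assays called. On Cq as deposited 5 of 5 were called higher, beside 60.6%. Of 4 brown fat assays 1 was called higher and 1 lower against either group, near the share of all assays.

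In the first set the marker sums for retinal neurons were 42.4 to 48.4 in WT, 44.04 to 59.3 in DKO, 16.9 to 23.5 in DicKO and 15.9 to 25.4 in DKO_DicKO, with mir-124# and mir-124a (TM446) undetected throughout. Those for pigment epithelium, ciliary body and lens were 33.7 to 52.2 in WT, 72.2 to 84.3 in DKO, 40.2 to 53.6 in DicKO and 27.4 to 91.8 in DKO_DicKO. The muscle sums were at most 0.244 in any sample, with mir-208, mir-208b, mir-499, mir-133b, mir-133a (TM 458) and mir-133a# undetected in all groups. Brown fat sums were 0.459 to 0.608 in WT, 0.661 to 0.835 in DKO, 0.225 to 0.411 in DicKO and 0.274 to 0.337 in DKO_DicKO. The white blood cell and microglia sums were 0.0710 to 0.107 in WT, 0.151 to 0.191 in DKO, 0.196 to 0.615 in DicKO and 0.113 to 0.507 in DKO_DicKO, with mir-142-5p and mir-150# undetected in all groups. Of 7 retinal assays 1 was called higher and 2 lower in DicKO against WT, with a median of −0.10 log2 (limma, 36.1% of all assays called), and 2 higher and 1 lower in DKO_DicKO against DKO, with a median of 0.58 (32% called). In each, 2 of 7 were called lower and none higher on Cq as deposited (limma, 61.5% and 63.1% of all assays called). The part of these cells in the level of TM 2243 was not tested.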

How the data were processed

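Per the labels, total RNA of retina (microRNeasy) was reverse transcribed with 522 stem-loop primers; pre-amplification ran for 14 cycles, and FAM was the reporter. The authors deposited Cq values, named not normalized. The software, threshold and baseline were not given in the sources used here. Of the table's columns, 10 have no name and no values and were not used. Detection was Cq 32 or lower. The log2 level was a mean Cq, over assays detected throughout the set, minus an assay's Cq. Undetected and lower values were set to a floor (−2.94 in the first set, −7.40 in the second), which raised 778 of 2011 and 104 of 3248 detected values.

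Assays detected in all samples of a compared group were fitted with limma 3.58.1 in R 4.3.3 (groups of the set together, two-sided, Benjamini-Hochberg, threshold 0.05), and tested on simulated data. P-values measure the spread between samples, which may be technical. Whether the replicate numbers pair samples was checked on scaled levels, which hold no shift of a whole sample, and was not settled. In the first set the mean Cq of the common assays by number was 25.17, 23.28 and 24.99 in WT and 25.52, 23.60 and 25.25 in DKO. Replicate 2 was also the earliest in DicKO (25.40), but not in DKO_DicKO (27.45, after 26.08 in replicate 1). Members and lists were chosen with earlier results of these data known. Named are the miR-378 assays, the 5 assays nearest to them in each set, and up to 4 listed assays, called ones first. Alternatives were scaling, detection limit, floor, filter, fit, block and left-out samples. The number of samples, 3 or 4 per group, limits the precision.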

Additional observations from a re-analysis of the deposited data

Results flagged for a closer look

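The Cq of TM 2243 in DKO_DicKO of the first set was singled out because 1 of its 4 samples stood far from the others. Replicate 4, at Cq 29.1, was separated from the nearest other sample by 0.891 of the whole range of the group, above the 95% limit of Dixon's test for 4 samples. Chance gives such a gap in about 1 of 20 groups, and 7 sets of 4 values were looked at, from both groups of 4 samples. DKO replicate 1 lay at a like Cq, in a group of 3 samples, to which the test was not applied.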

How the results depend on the processing

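In the first set TM 2243 kept the direction of its scaled differences under all alternatives for DKO against WT, DicKO against WT, DKO_DicKO against DKO and DKO_DicKO against DicKO. Leaving out 1 sample gave −2.0004 to −0.10, 2.40 to 4.07, 2.001 to 3.98 and −2.17 to −0.21 log2. Whether the replicate number pairs samples was not settled (10 of 18 correlations over 0.1 in the first set, from −0.37 to 0.66, and 4 of 9 in the second). With that number as a block, DicKO against WT was called at 3.11 (limma, adjusted p = 0.0333) and DKO_DicKO against DKO at 4.00 (limma, adjusted p = 0.0115). Without DKO 1 and DKO_DicKO 4, an alternative added after the data were seen and chosen by their TM 2243 values, DicKO against WT was called at 2.95. The uncalled difference of the Dicer1 effects changed sign: it was 0.42 without scaling, 0.15 with median scaling, 0.12 with a limit of Cq 35, 0.12 without a floor, 0.89 with the replicate block, and −1.11 to 0.95 with 1 sample left out. Unscaled Cq of DKO_DicKO minus DKO ran from −1.94 to 0.92 cycles with 1 sample left out, and minus DicKO from −0.0533 to 1.72, or −0.0533 without both samples. In the second set, without scaling, DKO against WT was −1.96 (TM 2243) and −2.02 (TM 567), DKO_P53KO against DKO 1.24 and 0.44, and DKO_P53KO against WT −0.72 and −1.58. The scaling itself removes the common shift. The gap of DKO minus WT ran from −0.0522 to 0.195 cycles with 1 sample left out, and the other gaps from 0.668 to 0.915 and from 0.774 to 0.920; each value moved by less than 1 SD of the group's replicates. Counts of called assays stayed within 1.5 times in 139 of 179 alternatives: 23 for DKO against WT of the first set became 0 to 27, and 2 in the second 0 to 12. Counts of called list members did so in 1371 of 1611.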
